A study of Mus musculus with 77 samples.

Results

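Neurog3 (ENSMUSG00000044312), the gene that encodes the transcription factor Neurogenin3 (Ngn3), was followed through every library of an overexpression experiment in mouse pancreatic ductal organoids. It was chosen by name, as 1 of the 46078 genes of the deposited count table, and its level is given in all 77 libraries and 7 groups. The organoids were grown from adult pancreatic ducts of C57BL/6 mice and were infected with a lentiviral doxycycline-inducible (Tet-on) vector pair, in which a transactivator drives the cargo from a TRE3G promoter. The cargo was GFP only, GFP joined through a 2A peptide to HA-tagged wild-type Ngn3 (WT Ngn3), or the same construct carrying 6S-A Ngn3, in which 6 serines are replaced by alanine. GFP-positive cells were sorted in pools of 50, and each pool became 1 Smart-seq2 library. At 2 days after induction the groups were GFP only, WT Ngn3 and 6S-A Ngn3, each with 3 biological replicates of 6 technical repeats (18 pools). At 8 days they were WT Ngn3 (5 pools), 6S-A Ngn3 (6 pools) and the no-color cells of each kind of organoid (6 pools each), again from 3 replicates, and no GFP-only sample was listed. What the no-color cells carried is not stated further in the labels. Replicate 3 at 8 days was of organoid passage 5 and every other sample of passage 2.

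Ngn3 is a basic helix-loop-helix transcription factor that starts the endocrine program of the pancreas. It binds DNA as a dimer with E proteins such as Tcf3, is opposed by Id proteins that take up E proteins, and switches on further factors, among them Neurod1, Insm1 and Rfx6, which carry cells toward hormone production. In the embryo the gene is active for a short time in progenitors of the duct-like trunk, downstream of factors such as Sox9 and Foxa2 and under repression by the Notch effector Hes1. The Ngn3 protein is short-lived and is a substrate of cyclin-dependent kinases, which phosphorylate serines followed by proline.

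Neurog3 lies on the plus strand of chromosome 10 at chr10:62133090-62134763 (GRCm38, GENCODE M21). Its transcript of 1540 bases has 2 exons, and the whole coding sequence, chr10:62133463-62134107 with the stop codon, sits in exon 2 and encodes 214 residues. The coding sequence holds 6 serine-proline pairs, at codons 14, 38, 160, 174, 183 and 199, counted from 1 at the start codon, and these are the serines exchanged in 6S-A Ngn3. A threonine-proline pair stands at codon 35 and was left in place. The 6 reference sites are shown because they are the whole difference between the 2 proteins compared here. Each line gives 18 bases of the plus strand, 5′ to 3′, with the serine and proline codons in capitals.

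Codon 14, chr10:62133496-62133513: caagtgTCCCCAgagaca
Codon 38, chr10:62133568-62133585: ccacctAGCCCCactctc
Codon 160, chr10:62133934-62133951: ctggggAGCCCCggaggt
Codon 174, chr10:62133976-62133993: atctacTCCCCAgtctcc
Codon 183, chr10:62134003-62134020: aacctgAGCCCCacggcc
Codon 199, chr10:62134051-62134068: cccagcTCCCCAtcctat

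The 6 sites split into 3 that read TCC followed by CCA and 3 that read AGC followed by CCC, all in exon 2. The deposited values are reads per gene. They cannot separate transgene from endogenous transcript, nor a WT from a 6S-A molecule. The transgene carries only the coding sequence, whereas the reference gene also has untranslated regions. In the last exon, outside the coding sequence, Fam241b lies on the opposite strand, with an exon at chr10:62134489-62134761. Whether strand was used in the counting is not given in the sources used here, so reads of both genes in that stretch cannot be told apart. GFP only held 1194 reads of Fam241b and 4 of Neurog3, so few reads of Fam241b were counted as Neurog3 there. Fam241b itself had a mean of 15.7 CPM in GFP only, 17.9 in WT Ngn3 and 21.7 in 6S-A Ngn3 at 2 days and did not pass the test for either protein (adjusted p = 0.648 and 0.136).

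The 76 libraries that passed the limits of the study held between 1501002 and 9202142 reads on genes. 1 library of WT Ngn3 at 8 days (replicate 2, technical repeat 1) held 849278 reads, under the limit of 1000000, and was left out of the tests. The study's methods count more left-out samples under the same limits, and which those were is not stated. The summed level of 12 ductal markers lay between 9178 and 39510 CPM in every replicate. At 2 days this sum was 16480 to 18430 CPM in GFP only, 10570 to 11350 CPM in WT Ngn3 and 9178 to 9565 CPM in 6S-A Ngn3, with no overlap. Spp1 held the largest part of the difference (8812, 4572 and 3827 CPM on average), and Krt18 and Epcam were also lower. Not all members followed, as Cdh1 was higher in the Ngn3 groups (725, 1073 and 1077 CPM) and Sox9 similar (370, 380 and 353 CPM). In contrast, 10 acinar markers summed to at most 20.7 CPM and 7 immune and endothelial markers to at most 17.02 CPM. The acinar genes Cpa1, Prss1 and Pnlip had 0 reads in all libraries. 7 mesenchymal markers summed to between 9.95 and 17.6 CPM in GFP only between 47.4 and 108 CPM in WT Ngn3 and between 53.5 and 78.0 CPM in 6S-A Ngn3 at 2 days, and reached 121 CPM in no-color cells of WT organoids, mostly through Vim (10.5, 70.9 and 66.5 CPM on average in the 3 groups of 2 days). Col3a1 among them had 0 reads. The part of the ductal and mesenchymal differences in the results at 2 days was not tested.

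Neurog3 was all but absent from GFP-only pools, abundant in both Ngn3 groups at 2 days, lower in both at 8 days, and close to background in no-color cells. Values are counts per 1000000 reads on genes after TMM scaling (CPM), for single pools or for the summed pools of a replicate. In GFP only, 14 of 18 pools had 0 reads of Neurog3 and the other 4 had 1 read each, which gave 0.0732, 0.0385 and 0.0463 CPM in replicates 1 to 3 (mean 0.0527 ± 0.0182, SD, n = 3). The 18 WT Ngn3 pools at 2 days ranged from 29.9 to 376 CPM around a median of 99.8, and the replicates held 206, 89.6 and 105 CPM (133 ± 63.2, SD, n = 3). The 18 pools of 6S-A Ngn3 ranged from 43.1 to 247 CPM around a median of 125, with replicates at 198, 117 and 101 CPM (139 ± 52.3, SD, n = 3). Replicate 1 was the highest of the 3 in both Ngn3 groups, and every Ngn3 pool of 2 days stood above every GFP-only pool.

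At 8 days the 3 WT Ngn3 replicates held 6.86, 46.1 and 14.2 CPM (22.4 ± 20.8, SD, n = 3). Replicates 2 and 3 were single pools, and the highest value, that of replicate 2, came from 144 reads in 1 pool. In 6S-A Ngn3 at 8 days the replicates lay close together at 9.85, 12.8 and 15.4 CPM (12.7 ± 2.75, SD, n = 3), and the 6 pools ranged from 7.97 to 17.3 CPM around a median of 11.7. The no-color cells of WT organoids held 0.394, 0.218 and 0 CPM, from 6, 2 and 0 reads. Those of 6S-A organoids held 0.367, 0.989 and 0 CPM, from 6, 11 and 0 reads. With 0 reads, replicate 3 allowed up to 1.73 CPM in the no-color cells of WT organoids and up to 0.369 CPM in those of 6S-A organoids (limit of 3 reads, counting error only).

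From highest to lowest mean, the order of groups was 6S-A Ngn3 at 2 days, WT Ngn3 at 2 days, WT Ngn3 at 8 days, 6S-A Ngn3 at 8 days, no-color cells of 6S-A organoids, no-color cells of WT organoids, and GFP only. Replicates of WT Ngn3 at 2 and at 8 days did not overlap, nor did those of 6S-A Ngn3 at 8 days and its no-color cells. The other 4 pairs of neighbours in this order overlapped. Fewer cells carrying the transcript and fewer transcripts per cell cannot be told apart in pools of 50 cells.

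**Figure D1:**
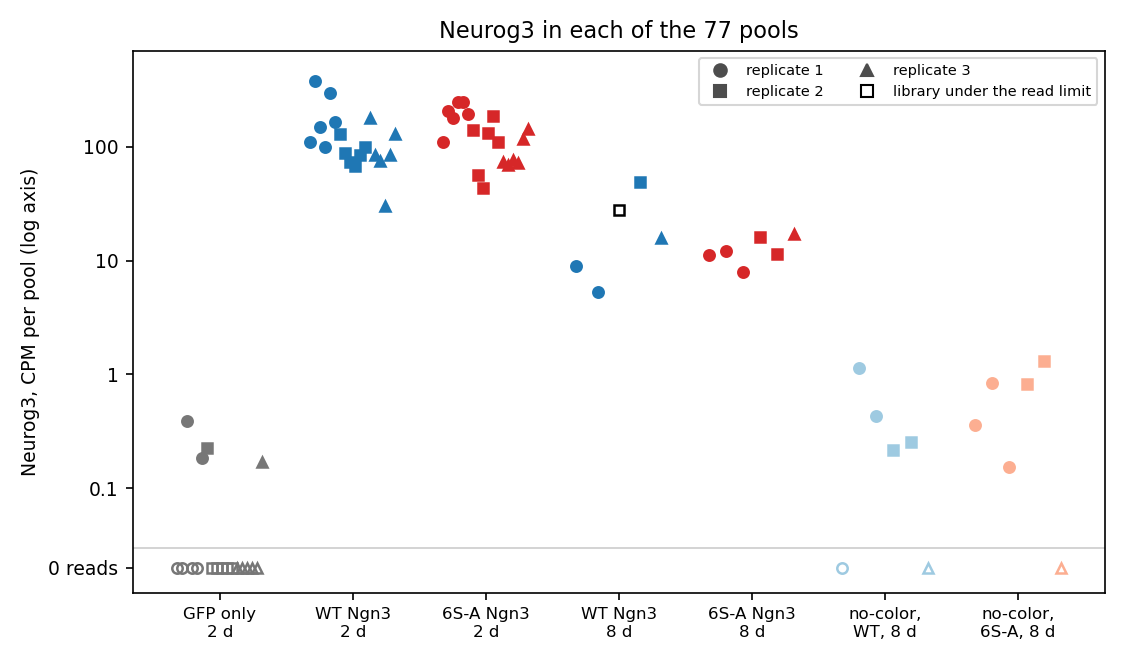
Neurog3 in CPM (log axis) in each of the 77 pools, by group, with replicates 1 to 3 as circles, squares and triangles and pools with 0 reads on the lowest line as open symbols. The Ngn3 pools of 2 days sit between 29.9 and 376 CPM, those of 8 days between 5.30 and 48.6 CPM, and no pool of GFP only or of no-color cells exceeds 1.32 CPM. The open black square is the library under the read limit.

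The first comparison asked how far the transgene raised Neurog3 over organoids that carried GFP only. Neurog3 rose in WT Ngn3 by 11.16 on the log2 scale (SE 0.647, adjusted p = 4.4e-06, edgeR quasi-likelihood test) and in 6S-A Ngn3 by 11.20 (SE 0.647, adjusted p = 2.31e-06). The fitted size depends on how 4 reads in GFP only are treated. Read rates gave 2616-fold for WT Ngn3 (9028 against 4 reads, exact Poisson 95% interval 1021 to 9604, counting error only) and 2606-fold for 6S-A Ngn3 (8830 against 4 reads, 1017 to 9566). Of 23844 genes tested, 6.56% were called higher and 5.23% lower in WT Ngn3, and 9.43% higher and 8.62% lower in 6S-A Ngn3. Blocking on replicate number gave 4291 calls for WT Ngn3, against 1563 higher and 1247 lower without it.

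The Neurog3 transcript level did not differ beyond the spread between the WT and 6S-A constructs at 2 days, and protein was not measured in these files. 6S-A Ngn3 minus WT Ngn3 was 0.05 on the log2 scale (SE 0.326, adjusted p = 1), with a 95% interval of -0.69 to 0.78, that is from 0.622-fold to 1.71-fold. In replicates 1 and 3, 6S-A Ngn3 stood at 96.3% and 96.0% of WT Ngn3, and in replicate 2 at 131%. The edgeR test called 0.0126% of genes in either direction in this comparison, which is 3 genes, against 147 with the replicate block.

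The factors that Ngn3 is known to switch on rose with it at 2 days. Of a list of 24 known Ngn3 targets, all 24 could be tested, and 21 rose and none fell in WT Ngn3, beside the 6.56% and 5.23% of all genes. The median difference of the list was 6.38 on the log2 scale, beside 0.01 for all genes. In 6S-A Ngn3, 23 rose and none fell (median 6.86, all genes 0.02), beside 9.43% and 8.62%. The list was drawn up with results of these samples known and is not independent evidence of its direction. Neurod1, a basic helix-loop-helix factor that acts directly after Ngn3, had 1 read in GFP only and held 45.5, 22.2 and 137 CPM in the WT Ngn3 replicates and 69.8, 52.3 and 98.0 CPM in those of 6S-A Ngn3. Insm1, a zinc finger factor of endocrine precursors, held 63.6, 84.6 and 201 CPM in WT Ngn3 and 123, 108 and 213 CPM in 6S-A Ngn3. For both genes replicate 3 was the highest in each group, whereas Neurog3 was highest in replicate 1. Amotl2 did not pass in either group (adjusted p = 0.848 and 0.772), and Cdkn1a and Dll1 did not pass in WT Ngn3 (0.0983 and 0.235). Between 6S-A and WT Ngn3, 23 of the 24 targets had a higher fitted level in 6S-A Ngn3, with a median difference of 0.45 on the log2 scale beside -0.00117 over all genes. Single genes did not pass: 0 of 24 were called by edgeR, 2 had an unadjusted p under 0.05 (1380 of all 23844 genes did), and DESeq2 also called 0. With the replicate block 1 target passed, higher in 6S-A Ngn3, when 147 of all 23844 genes were called in either direction.

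At 2 days Neurog3 varied more between technical repeats of 1 replicate than nearly all genes at 50 CPM or more. Within replicates, the SD of log2(CPM + 1) was 0.694 in WT Ngn3 and 0.587 in 6S-A Ngn3 at 2 days, against 0.0888 and 0.0843 from counting error alone. Of the genes at 50 CPM or more, 99.4% of 4388 in WT Ngn3 and 98.7% of 4385 in 6S-A Ngn3 had a lower SD, and the medians over those genes were 0.252 and 0.279. Some of its targets also varied widely. In WT Ngn3 the SD of Neurod1 was 1.17 and that of Rfx6 0.974, both above Neurog3, and that of Insm1 was 0.512. In 6S-A Ngn3 they were 0.497, 0.537 and 0.356, all below Neurog3. The largest gap was in WT Ngn3 replicate 3, where the highest of 6 pools held 180 CPM and the lowest 29.9 CPM, a ratio of 6.00. 6S-A Ngn3 replicate 2 came next, at 187 against 43.1 CPM (4.35), and the smallest ratio, 1.90, was that of WT Ngn3 replicate 2. The coefficient of variation within a replicate was between 24.3% and 56.1%, whereas counting error accounted for 4.06% to 7.62%. At 8 days the SD within replicates was 0.473 in WT Ngn3, from a single replicate with 2 pools, and 0.304 in 6S-A Ngn3, where counting error came to 0.203 and 0.190. Neurog3 was then under 50 CPM, so that these values have no like set of genes here. They exceeded 83.5% and 55.4% of the genes at 50 CPM or more.

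Between replicates, the SD of the replicate means was 0.585 in WT Ngn3 and 0.595 in 6S-A Ngn3 at 2 days, higher than in 98.5% and 99.3% of the same genes, whose medians were 0.168 and 0.158. In replicates 2 and 3 of each group, technical repeats 2 and 3 were much closer to each other than any other pair (6 pairs, chi-square per gene 1.59 to 2.35, against 5.21 or more in the rest of 149 pairs). Among these, the 4 Ngn3 pairs differed in Neurog3 by 1.10 to 1.31 times.

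**Figure D2:**
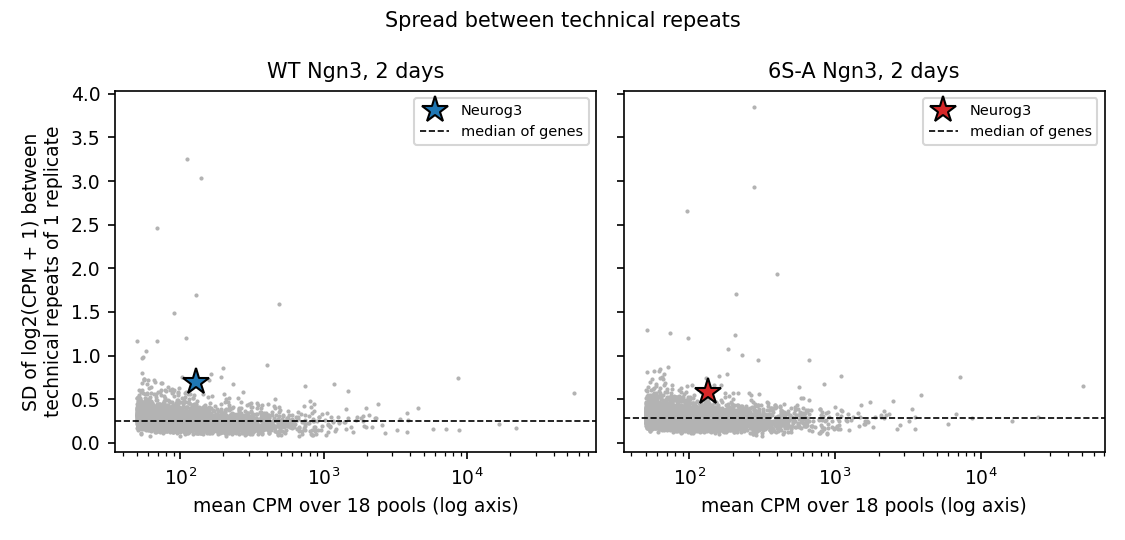
SD of log2(CPM + 1) between technical repeats of 1 replicate against mean CPM (log axis) for all genes at 50 CPM or more, in WT Ngn3 (left) and 6S-A Ngn3 (right) at 2 days, with Neurog3 as a star and the median of the genes as a dashed line. Neurog3 lies at 0.694 and 0.587, above medians of 0.252 and 0.279.

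The pools with more Neurog3 differed from the others in library measures. Over the 36 Ngn3 pools of 2 days, with each value set against the mean of its biological replicate, Spearman's rho of Neurog3 was -0.64 with the share of mitochondrial reads, -0.61 with the share of reads not aligned, -0.62 with the share of ambiguous reads and -0.49 with the share of spike-in reads. It was 0.46 with the number of reads on genes and 0.34 with the number of detected genes. The mitochondrial share ran from 5.84% to 16.5% in WT Ngn3 and from 4.70% to 13.8% in 6S-A Ngn3. The relation with the mitochondrial share had the same sign in each group alone (-0.59 in WT Ngn3 and -0.74 in 6S-A Ngn3). Pools of 1 replicate share their source, and all measures of a pool share its library, so these are descriptions of 36 libraries. After a straight-line relation with the mitochondrial share was removed, the SD of Neurog3 was 0.643 in WT Ngn3, still above 99.3% of genes, and 0.436 in 6S-A Ngn3, above 95.7%. This adjustment was chosen after seeing the data.

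**Figure D3:**
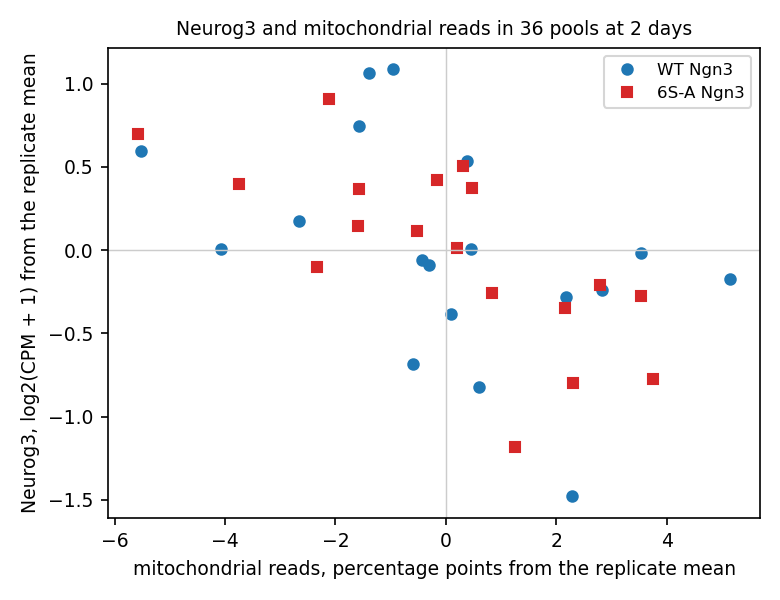
Neurog3 in log2(CPM + 1) against the share of mitochondrial reads in percentage points, both as the distance from the mean of the biological replicate, in the 18 WT Ngn3 pools (circles) and 18 6S-A Ngn3 pools (squares) of 2 days. Pools with a larger mitochondrial share tend to hold less Neurog3 (rho -0.64 over 36 pools).

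Inside the groups, pools with more Neurog3 did not hold more of its targets as a rule. Of the 24 known targets, 16 reached 10 CPM in the 36 pools. Their median rho with Neurog3 was 0.049, beside 0.037 over the 9828 genes at that level. 10 of the 16 were positive, as was the median over all genes. 2 exceeded 0.3, namely Cdkn1a, the cell-cycle inhibitor p21, at 0.36, and Atoh8, another basic helix-loop-helix factor, at 0.32. Over all genes, 15.3% exceeded 0.3 and 11.3% lay under -0.3. Neurod1 had a rho of 0.06 and Insm1 of -0.14. The islet factor Isl1 stood at 0.21 and the zinc finger factor Myt1 at 0.20, both mainly through 6S-A Ngn3 (0.54 and 0.41, against -0.05 and 0.05 in WT Ngn3). Snai2 at -0.22 and the corepressor Cbfa2t3 at -0.20 were the lowest of the list.

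The pool with the most Neurog3 held more Neurod1 than the pool with the least in 4 of 6 replicates, more Insm1 in 2 of 6 and more Rfx6 in 2 of 6. In WT Ngn3 replicate 1, the pool with the most Neurog3 (376 CPM) held 60.4 CPM of Neurod1 and the pool with the least (99.4 CPM) held 12.9 CPM. In WT Ngn3 replicate 2, the pool with the most Neurog3 (129 CPM) held 3.57 CPM of Neurod1 and the pool with the least (68.0 CPM) held 43.8 CPM. Within single replicates of 6 pools, rho with Neurod1 ran from -0.77 to 0.49 and the median over the targets from -0.26 to 0.43. After the mitochondrial share was removed, the median over the targets was 0.18, with Neurod1 at 0.17 and Insm1 at 0.22, beside -0.03 over all genes.

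**Figure D4:**
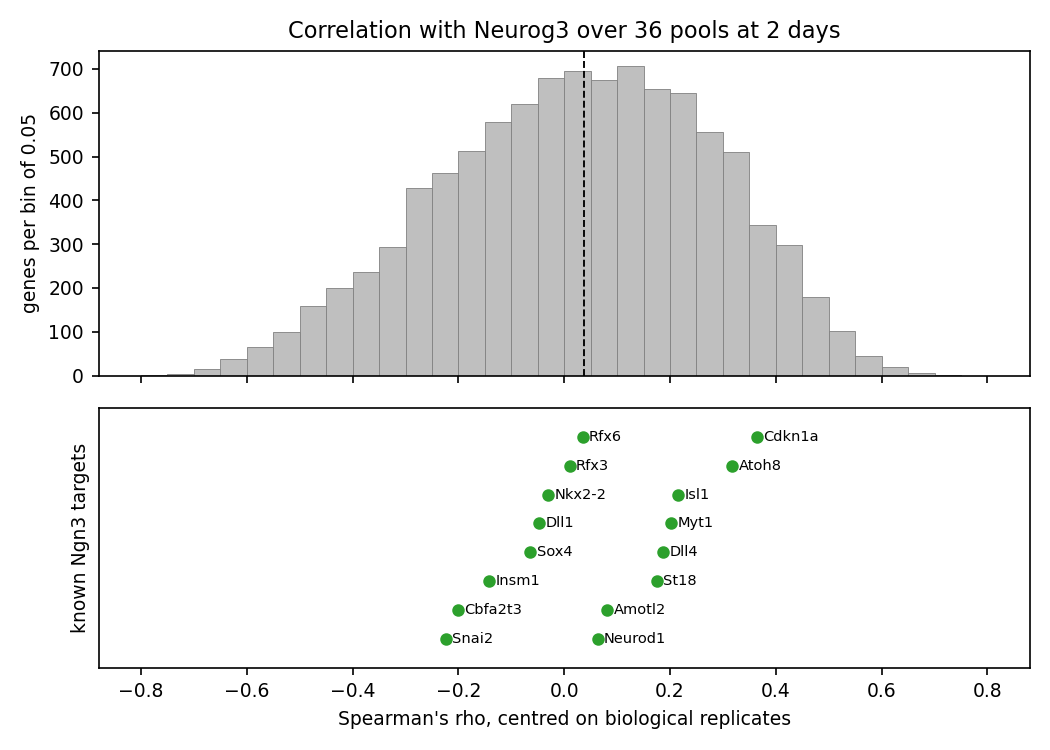
Top, number of genes by Spearman's rho with Neurog3 over 36 Ngn3 pools at 2 days, in bins of 0.05, for genes at 10 CPM or more, with the median of 0.037 as a dashed line. Bottom, the 16 known Ngn3 targets at that level, placed by rho on the same axis (their height has no meaning), from Snai2 at -0.22 to Cdkn1a at 0.36.

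The genes whose level over the 36 pools was most like that of Neurog3 were Ap1b1, a subunit of the clathrin adaptor complex (rho 0.74), Klc1, a kinesin light chain (0.69), Nfs1, a cysteine desulfurase (0.69), Hpcal1, a neuronal calcium sensor protein (0.68), and Anapc7, a subunit of the anaphase-promoting complex (0.68). The lowest were Cd2ap, an adaptor protein of the actin cytoskeleton (-0.76), Fnbp1l, Hltf and Specc1, and the osmotic stress factor Nfat5 (-0.73). These 10 were picked as the ends of the 9828 values. With the mitochondrial share itself, the first 5 had rho from -0.83 for Klc1 to -0.48 for Hpcal1 and the last 5 from 0.57 for Specc1 to 0.79 for Nfat5. With the mitochondrial share removed, Ap1b1 was at 0.68 and Hpcal1 at 0.60, Anapc7 at 0.36, Cd2ap at -0.58 and Hltf at -0.33.

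The next comparison followed each protein from 2 to 8 days after induction. In 6S-A Ngn3, Neurog3 fell by 3.46 on the log2 scale (SE 0.582, adjusted p = 0.01, edgeR over 24945 genes), an 11-fold lower level with a 95% interval of -4.67 to -2.25. In WT Ngn3 the difference was -2.61 (SE 0.566, interval -3.79 to -1.44), 6.12-fold lower, and it did not pass the threshold (adjusted p = 0.0758). The call depended on 1 library and on the test. Without WT Ngn3 replicate 2 of 8 days, the single pool at 46.1 CPM, the difference was -3.68 and the adjusted p 0.00941 (edgeR). With it, the adjusted p was 0.00629 by DESeq2 (-2.56) and 1.01e-08 by edgeR without a gene filter (-2.61). In 6S-A Ngn3 the call was lost without replicate 1 of 2 days (adjusted p = 0.0696) and with passage 2 alone it held (-3.67, adjusted p = 0.0138). The change did not differ between the proteins (6S-A minus WT -0.85 on the log2 scale, SE 0.758, interval -2.42 to 0.73, adjusted p = 1). Without WT Ngn3 replicate 2 of 8 days that difference turned positive, at 0.22.

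Few genes passed in these comparisons. Higher at 8 days were 0.0321% of genes in WT Ngn3 and 0.233% in 6S-A Ngn3, lower were 0.0842% and 0.200%, and the median over all genes was -0.14 and -0.12 on the log2 scale. Neurog3 ranked 13th by p in 6S-A Ngn3 and 45th in WT Ngn3, whereas by size of the fall it ranked 1361st and 3033rd of 24945 genes. For the difference of the 2 changes edgeR called 0% of genes, with 750 at an unadjusted p under 0.05 and 4 called by DESeq2. Against the number of spike-in reads the direction was the same, with medians of 109 and 118 Neurog3 reads per 1000 spike-in reads in WT and 6S-A Ngn3 at 2 days and of 9.34 and 12.4 at 8 days. Spike-in scaling in the test gave -3.69 for 6S-A Ngn3 with an adjusted p of 0.322. Time and whatever else differed between the collections of 2 and 8 days cannot be told apart.

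**Figure D5:**
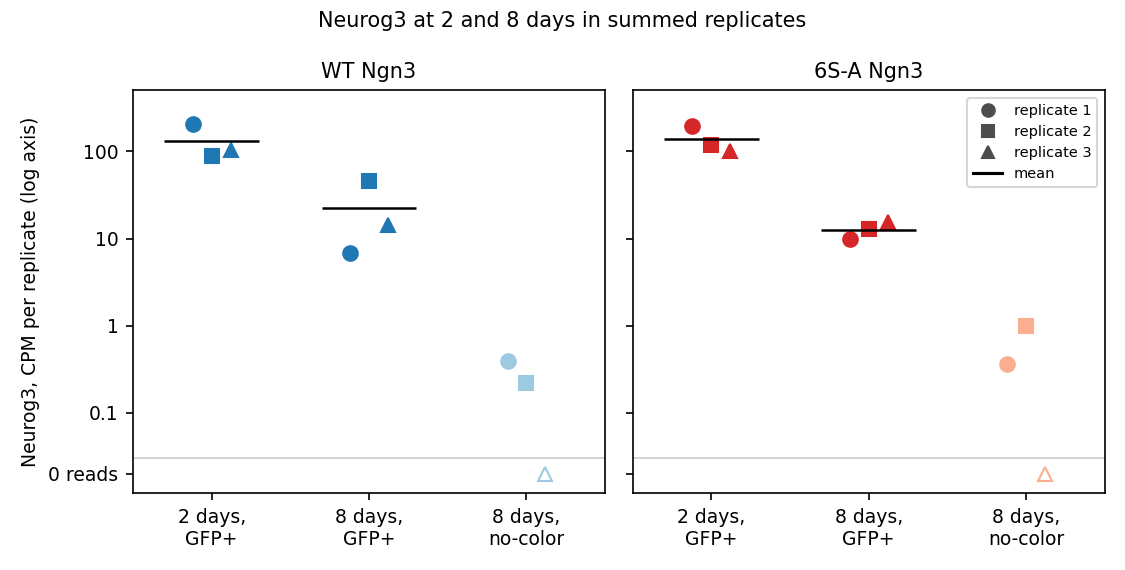
Neurog3 in CPM (log axis) in the summed replicates of WT Ngn3 (left) and 6S-A Ngn3 (right) at 2 days, at 8 days and in no-color cells of 8 days, with replicates 1 to 3 as circles, squares and triangles and a line at the mean where no replicate had 0 reads. WT Ngn3 at 8 days spreads from 6.86 to 46.1 CPM, whereas 6S-A Ngn3 lies between 9.85 and 15.4 CPM.

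Of the 24 known targets, 2 fell and none rose from 2 to 8 days in either group, beside 0.0842% of all genes lower in WT Ngn3 and 0.200% in 6S-A Ngn3. These were Insm1 (-2.64 in WT Ngn3, adjusted p = 0.0389, and -2.18 in 6S-A Ngn3, adjusted p = 0.0285) and Neurod2, a neuronal relative of Neurod1 (adjusted p = 0.0395 and 0.0215). The median over the list was -1 in WT Ngn3 and -1.11 in 6S-A Ngn3, beside -0.14 and -0.12 over all genes. Neurod1 did not pass (-1.75 and -1.16, adjusted p = 0.598 and 0.576), and neither did Rfx6, which was at 51.4 and 74.2 CPM at 2 days and at 19.9 and 68.7 CPM at 8 days. Pax6 and Isl1 had higher means at 8 than at 2 days in 6S-A Ngn3 (31.1 against 10.7 CPM and 87.3 against 39.8 CPM) and did not pass (adjusted p = 0.593 and 0.754).

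The replicates of 8 days did not order in the same way by Neurog3 and by hormone transcripts. WT Ngn3 replicate 1, the lowest in Neurog3 at 6.86 CPM, held 1600.0 CPM of Sst, the somatostatin gene, and 1436 CPM of Ghrl, the ghrelin gene. Replicate 2, the highest in Neurog3 at 46.1 CPM, held 8.64 CPM of Sst and 1.28 CPM of Ghrl, and replicate 3 held 4.35 and 2.77 CPM. In 6S-A Ngn3, where Neurog3 lay between 9.85 and 15.4 CPM, Sst was at 1586, 1501 and 2.46 CPM and Ghrl at 1553, 101 and 35.6 CPM. The lowest value of each gene belonged to replicate 3, which is of passage 5.

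At 8 days, 6S-A Ngn3 and WT Ngn3 did not differ in Neurog3 beyond the spread (-0.83 on the log2 scale, SE 0.83, interval -2.58 to 0.93, adjusted p = 1). In replicates 1 and 3, 6S-A Ngn3 was at 144% and 108% of WT Ngn3, and in replicate 2 at 27.7%. Without WT Ngn3 replicate 2 the difference was 0.24. edgeR called 0% of 19696 genes here, with 415 at an unadjusted p under 0.05 and 0 called by DESeq2.

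Reporter-positive cells of 8 days were next compared with no-color cells of the same organoids. GFP and Ngn3 came from 1 transcript, so that the sort on GFP itself selects for Neurog3. The difference was 6.31 on the log2 scale in WT Ngn3 (SE 1.12, adjusted p = 0.029) and 4.72 in 6S-A Ngn3 (SE 0.99, adjusted p = 0.0422), and reporter-positive replicates stood above their no-color replicates in 3 of 3 pairs for each protein. By reads, WT Ngn3 was 50.0-fold over its no-color cells (290 against 8 reads, exact Poisson 95% interval 25.0 to 117, counting error only) and 6S-A Ngn3 24.6-fold (372 against 17 reads, 15.2 to 42.8). By replicate, WT Ngn3 was 17.4-fold (74 against 6 reads) and 212-fold (144 against 2 reads, 57.5 to 1764) over its no-color cells. In replicate 3, where those cells had 0 reads, it was at least 6.53-fold higher (lower end of the exact Poisson 95% interval). 6S-A Ngn3 was 26.8-fold, 12.9-fold and, by the same limit, at least 33.3-fold higher.

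Both calls depended on the samples and settings. By DESeq2 the adjusted p was 3.5e-07 in WT and 1.7e-05 in 6S-A Ngn3, and by edgeR without a gene filter 2.48e-07 and 3.96e-05. In the edgeR test as reported, that of WT Ngn3 was lost when WT Ngn3 replicate 2 (adjusted p = 0.177) or any 1 of the 3 no-color replicates (0.0665 to 0.167) was left out, and that of 6S-A Ngn3 with any 1 of its 6 replicates left out (0.0556 to 0.186). Both were also lost with spike-in scaling (adjusted p = 0.344 and 0.512), with edgeR's own gene filter (0.0519 and 0.0508) and with passage 2 alone (0.0799 and 0.183). Against the mean of both no-color groups the adjusted p was 0.00128 and 0.00217, and with the replicate number as a block 0.00426 and 0.00411. In WT Ngn3 0.188% of genes were called higher and 0.0609% lower, and in 6S-A Ngn3 0.416% and 0.168%. The replicate block raised the calls to 244 and 397 genes. Of the 23 known targets tested, 4 rose and none fell in WT Ngn3 (8 rose with the replicate block) and 9 rose and none fell in 6S-A Ngn3 (12 with the block). Insm1, Neurod1, Rfx6 and St18 were called in both.

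No-color cells held little Neurog3, and the shares of the known targets ranged widely. As a share of the reporter-positive mean, Neurog3 was at 0.911% in WT and 3.57% in 6S-A organoids. By replicate the share was 5.75% and 0.473% in replicates 1 and 2 of WT and 3.73% and 7.75% in those of 6S-A organoids. In replicate 3, with 0 reads in no-color cells, the limit of 3 reads allowed up to 12.1% in WT and up to 2.40% in 6S-A organoids (counting error only). Leaving out single replicates moved the WT share between 0.486% (without no-color replicate 1) and 1.93% (without WT Ngn3 replicate 2, the single pool at 46.1 CPM), and the 6S-A share between 1.45% (without no-color replicate 2) and 5.36% (without no-color replicate 3). Known targets were included from 100 reads in reporter-positive cells, the denominator of the share, which favours low shares. The same count over all genes was not made, so the counts here have no background beside them. Of the included targets, 8 of 16 in WT and 13 of 20 in 6S-A organoids had a share under 5%. Among these, Neurod1 was at 0.799% and 0.530%, Insm1 at 1.17% and 0.338% and Rfx6 at 1.15% and 0.222%, and without any single replicate these 3 shares stayed between 0.0654% and 4.18%. Other targets had far larger shares, with Dll1, a Notch ligand, at 166% and 222%, Cdkn1a at 121% and 63.3% and Amotl2 at 39.8% and 73.0%. Single replicates moved these too, in WT organoids to 73.8% for Dll1 without no-color replicate 1 and to 57.2% for Cdkn1a without no-color replicate 3, and in 6S-A organoids to 131% for Amotl2 without 6S-A Ngn3 replicate 1. Cbfa2t3 stood at 14.0% in WT organoids, which rested on the single pool of no-color replicate 3 (8.64 CPM from 15 reads, against 0.197 and 1.42 CPM in replicates 1 and 2), and at 3.31% without it. In 6S-A organoids Cbfa2t3 was at 0.327%. Krt19, a keratin of duct cells, was at 339% and 373%, and Sox9, a duct and progenitor factor, at 92.2% and 175%.

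Between the 2 kinds of no-color cells Neurog3 differed by 0.76 on the log2 scale (6S-A minus WT, SE 1.05, interval -1.46 to 2.98, adjusted p = 0.904). edgeR called 0% of genes there, with 1649 at an unadjusted p under 0.05 and 38 called by DESeq2. Leaving out replicate 2 of the 6S-A no-color cells turned the difference to -0.41. Against GFP only at 2 days, the mean of both no-color groups was 2.63 higher on the log2 scale (SE 0.958), which did not pass (adjusted p = 0.206). The 25 reads in no-color cells against 4 in GFP only gave a ratio of 7.58 (exact Poisson 95% interval 2.62 to 30.0, counting error only). 4 of 6 no-color replicates stood above every GFP-only replicate and the other 2 had 0 reads (exact permutation test, two-sided, p = 0.286, smallest possible 0.0119). In this comparison 0.233% of genes were called higher and 0.681% lower, none of the 24 known targets was called by edgeR, 4 had an unadjusted p under 0.05 (3630 of all 24945 genes did) and DESeq2 called 0. Day and the sort on GFP differ together here, and what the no-color cells carried is not stated, so these cannot be told apart.

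Over all 21 summed replicates, the genes closest to Neurog3 in log2(CPM + 1) were Tff3, a secreted trefoil peptide (Pearson's r = 0.98), Lzts1 (0.97), Hes6, a Hes family member that does not repress like Hes1 (0.96), Cst6, a cystatin (0.96), and Insm1 (0.96). The 21 points fall into groups with and without Ngn3, which these correlations mostly follow. Tff3 was at 0.206 CPM in GFP only, at 207 and 222 CPM in WT and 6S-A Ngn3 at 2 days, at 38.8 and 44.7 CPM at 8 days, and at 0 and 0.0614 CPM in no-color cells. Lzts1 was lower at 8 than at 2 days in both groups (-2.41, adjusted p = 0.0389, and -2.64, adjusted p = 0.00908, edgeR). So was Hes6 (adjusted p = 0.0395 and 0.0282). Both were picked for likeness to Neurog3 over the same 21 replicates, in which Neurog3 itself was lower at 8 days. A lower level at 8 days is therefore partly built into the choice, and these p-values are not independent evidence of a fall. The test with time is not given here for Tff3 and Cst6.

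Of 12 upstream regulators, which act before Ngn3 in the pancreas, 11 could be tested at 2 days, and Ptf1a had 0 reads in all libraries. The zinc finger factor Glis3 fell (-1.37 in WT Ngn3, adjusted p = 2.5e-05, and -1.78 in 6S-A Ngn3, adjusted p = 1.69e-06, edgeR), and the homeodomain factor Prox1 rose (0.96 and 1.37, adjusted p = 0.0242 and 0.00178). In all 1 rose and 2 fell in WT Ngn3, and 2 rose and 3 fell in 6S-A Ngn3. Over all genes 6.56% rose and 5.23% fell in WT Ngn3, and 9.43% and 8.62% in 6S-A Ngn3. With the replicate block 2 rose and 3 fell in WT Ngn3, and 2 rose and 5 fell in 6S-A Ngn3. That block called 4291 and 5912 of 23844 genes in either direction. Sox9 was at 370.0, 380.1 and 353 CPM and Hes1 at 439, 465 and 426 CPM in GFP only, WT and 6S-A Ngn3, and neither passed.

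Among 7 partners and inhibitors, Tcf4, an E protein, rose (0.88 and 0.94), the inhibitor Id4 rose (3.95 in both, from 0.229 to 3.57 and 3.61 CPM) and the inhibitor Id2 fell (-0.73 and -0.52), and the other 4 did not pass in either group. Higher over all genes were 6.56% in WT and 9.43% in 6S-A Ngn3. With the replicate block 3 of the 7 rose in WT Ngn3 and 4 in 6S-A Ngn3, when 4291 and 5912 of 23844 genes were called in either direction. Tcf3, the main E protein partner, was at 128, 134 and 144 CPM at 2 days. Inside the groups its rho with Neurog3 was 0.47, higher than for 97.3% of genes, and the only positive value among the 6 members of this list at 10 CPM or more (median -0.11, Tcf4 at -0.18). From 2 to 8 days Tcf3 fell in 6S-A Ngn3 (-1.46, adjusted p = 0.01). In no-color cells of 8 days against GFP only, Tcf3 was also lower (-1.12, adjusted p = 0.0104) and Id2 higher (1.12, adjusted p = 0.031).

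Of 13 genes for kinases, cyclins and turnover factors of the Ngn3 protein, 5 fell and none rose in WT Ngn3 at 2 days, beside 5.23% and 6.56% of all genes, and 7 fell and 1 rose in 6S-A Ngn3, beside 8.62% and 9.43%. With the replicate block 7 fell and 1 rose in each, when 4291 and 5912 of all 23844 genes were called in either direction in WT and 6S-A Ngn3. The mitotic kinase gene Cdk1 fell by 1.16 and 1.62 on the log2 scale, and Ccna2, Ccnb1 and Ccne1, the genes of 3 cyclins, and Cdk6 fell in both groups. Cdk2 and Cdkn1b fell in 6S-A Ngn3, whereas Fbxw7, a subunit of a ubiquitin ligase that targets Ngn3, rose there (0.74, adjusted p = 0.0175). Between the proteins 0 of the 13 passed by edgeR, 2 had an unadjusted p under 0.05, beside 1380 of all 23844 genes, and DESeq2 called 0. Among related genes, Neurog1, Neurog2, Neurod4, Neurod6 and Atoh1 had at most 5 reads each over all 77 libraries.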

How the data were processed

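Single-end reads of 50 bases from Smart-seq2 libraries had been aligned with GSNAP (build mm10) and assigned to genes of Ensembl release 81 with HTSeq (0.5.3p3), per the labels and the submitters' processing notes. Use of strand in counting is not given in the sources used here. The authors deposited raw read counts per gene without normalization, with 92 spike-ins, and 22.5% of reads were listed as not aligned and 8.06% as ambiguous. Libraries with over 1000000 reads on genes, under 30% spike-in reads and over 10000 detected genes were kept (76 of 77), technical repeats were summed, and genes detected in at least 5 libraries were tested with edgeR 4.0.16 in R 4.3.3 (TMM, robust quasi-likelihood test, Benjamini-Hochberg adjustment over all genes, threshold 0.05). Each time point was fitted alone and both together for changes over time. Whether replicates came from separate animals is not stated, so p-values measure the spread between these samples. Pool values were scaled by TMM over 77 libraries. Correlations used log2(CPM + 1) centred on replicate means and carry no p-value. The scripts were tested on simulated data.

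Same-numbered replicates deviated together within a time point (correlation of deviations from group means 0.181 to 0.549 in 9 pairs at 2 days and 0.131 to 0.686 in 18 pairs at 8 days) and not across time points (-0.317 to 0.202, 36 pairs), so numbers pair samples within a day. The members and lists were chosen with earlier results of these data known. Genes named are Neurog3, its overlapping gene, the fixed lists of its pathway, the 5 highest and 5 lowest correlated genes over pools and the 5 most alike over 21 replicates. Vim, Krt19, Sst and Ghrl are from marker lists. Alternatives were scran 1.30.0 and spike-in scaling, DESeq2 1.42.0, edgeR's and no gene filter, all libraries, the first technical repeat, a replicate block, other controls and leaving out each replicate. Passage 2 alone, a block within days, removal of the mitochondrial share and no-color shares without single replicates were chosen after seeing the data. Some members of the lists are not reported here by name.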

Additional observations from a re-analysis of the deposited data

Results flagged for a closer look

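The library left out for its depth, WT Ngn3 at 8 days, replicate 2, technical repeat 1, was used only in the alternative with all 77 libraries and held 23 reads of Neurog3, or 27.7 CPM, above the highest no-color pool at 1.32 CPM. The retained pool of the same replicate held 48.6 CPM. None of 10 sets of 4 or 6 pools held a pool of Neurog3 that stood apart from the rest by Dixon's ratio, of which chance alone picks about 1 set in 20.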

How the results depend on the processing

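Over alternatives other than leaving out a replicate, 117 of 140 values kept their direction and their side of the threshold or stayed close to the reported value. The log2 differences in Neurog3 that did not are these. 6S-A against WT Ngn3 at 2 days turned to -0.016 with spike-in scaling and to -0.38 with the first technical repeat alone. Reporter-positive against no-color cells lost the call with spike-in scaling (6.33, adjusted p = 0.344, in WT Ngn3 and 4.33, 0.512, in 6S-A Ngn3, edgeR), with edgeR's gene filter (6.21, 0.0519, and 4.73, 0.0508) and with passage 2 alone (6.30, 0.0799, and 4.07, 0.183). The fall from 2 to 8 days in WT Ngn3 passed with DESeq2 (-2.56, adjusted p = 0.00629), without a gene filter (-2.61, 1.01e-08) and with a replicate block (-2.72, 0.046), although numbers do not pair samples across days. That in 6S-A Ngn3 was lost with spike-in scaling (-3.69, 0.322) and with the first repeat alone (-2.87, 0.066). No-color cells against GFP only passed without a gene filter (2.63, adjusted p = 0.00482, edgeR). The replicate block changed no other call on Neurog3, and a block within each day gave -0.52 for the difference of the 2 changes. Spike-in scaling raised the SD within replicates to 1.01 in WT and 1.09 in 6S-A Ngn3, and removal of the mitochondrial share moved the rho of Insm1 to 0.22. With the first repeat alone, 11 and 10 known targets rose at 2 days in WT and 6S-A Ngn3, 1 rose over no-color cells in WT Ngn3 and 0 fell with time in 6S-A Ngn3. That setting tested 16475 genes at 2 days. The share of all genes it called was not taken, so these counts have no background beside them. Over no-color cells in WT Ngn3, DESeq2 called 9 and the block 8. The cause of these changes was not tested.

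Leaving out 1 replicate at a time gave log2 differences of 10.69 to 11.45 for WT Ngn3 and 10.85 to 11.50 for 6S-A Ngn3 against GFP only, -0.31 to 0.50 between the proteins at 2 days and -1.26 to 0.24 at 8 days. Over no-color cells they were 5.27 to 6.90 in WT Ngn3 and 4.21 to 5.79 in 6S-A Ngn3, and between no-color groups -0.41 to 1.36. With time they were -3.68 to -2.15 in WT Ngn3, -3.64 to -3.11 in 6S-A Ngn3 and -1.31 to 0.22 for the difference, and for no-color cells against GFP only 2.13 to 2.91. The SD within replicates was 0.592 to 0.817 in WT and 0.429 to 0.654 in 6S-A Ngn3. DESeq2 called 101 genes between the proteins at 2 days (edgeR 2 higher and 1 lower), 420 and 502 over no-color cells in WT and 6S-A Ngn3 (edgeR 37 and 82 higher, 12 and 33 lower), 270 and 721 with time (edgeR 8 and 58 higher, 21 and 50 lower) and 1110 for no-color cells against GFP only (edgeR 58 higher and 170 lower). Depth limits Neurog3 in no-color cells and GFP only, where 25 and 4 reads carry the values.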
